A study of Mus musculus with 4 samples.

Results

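The genes described here are 37 pattern recognition receptors and the adaptors that carry their signals, listed by name and found on the arrays through RefSeq accessions. Of the 37, 36 had a probe and 44 probes stood for them, among 20971 genes with a named probe on the array. The cells were RAW 264.7, a mouse macrophage-like line of BALB/c origin transformed by Abelson leukaemia virus. The groups were cells left untreated and cells exposed to Lactobacillus bulgaricus, a Gram-positive bacterium of fermented milk, at a multiplicity of infection of 10 for 1, 4 or 6 h. Each group had 1 two-colour array, made from RNA of 3 cultures combined in equal amounts, with the sample in Cy5 and a reference pooled from all groups in Cy3. There was thus no replicate array and no test could be made. Precision is limited by the number of arrays, and every difference below describes 4 hybridizations.

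Toll-like receptors are membrane proteins that bind microbial lipids, proteins or nucleic acids at the cell surface or in endosomes. Tlr2 pairs with Tlr1 or Tlr6 to bind bacterial lipoproteins, including those of Gram-positive bacteria, and Nod2 senses fragments of peptidoglycan in the cytosol. Most Toll-like receptors signal through the adaptor Myd88 to the Irak kinases, Traf6 and the kinase Map3k7 (TAK1), which lead to NF-kB and MAP kinases. Nod1 and Nod2 signal through the kinase Ripk2, and Nlrp3 and Nlrc4 assemble inflammasomes with Pycard and Casp1.

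Cy5 was well above background at between 49.5% and 51.8% of the 43020 spots per array. Of the macrophage markers 6 of the 8 with a probe (Csf1r, Adgre1, Itgam, Lyz2, Spi1 and Ptprc) were well above background in Cy5 on all 4 arrays, and no probe matched Cd68. Markers of other cells were also detected on all 4 arrays: Cd3e, Cd3d, Cd4 and Lck of 6 T cell markers, S100a8 and Elane of 5 neutrophil and mast cell markers, Zbtb46, Itgax and Siglech of 5 dendritic cell markers, Epcam, Krt8, Krt18 and Vil1 of 5 epithelial markers, and Dcn, Col1a2 and Pecam1 of 6 fibroblast and endothelial markers. On none of the arrays were Cd8a, Mpo, Cpa3, Flt3, Xcr1, Col1a1, Pdgfra and Cdh5 of the same lists well above background. Within each list, the summed Cy5 signal lay between 44279 and 51670 for macrophage, 574 and 728 for T cell, 184 and 245 for neutrophil and mast cell, 694 and 1195 for dendritic cell, 1884 and 2423 for epithelial, and 177 and 593 for fibroblast and endothelial markers over the arrays, and probes of different genes cannot be compared in level. A difference here is the log2 ratio of Cy5 over Cy3 on the array named first minus that on the array named second. The spot error of such a difference between single spots was an SD of 0.15 at each time, from 227 probes with 10 spots each. It comes from the scatter of spots within arrays, so error of labelling and hybridization between arrays is not in it. As a difference from untreated cells, the median of the measured epithelial markers was 0.63, 0.46 and 0.64 at 1, 4 and 6 h. Higher by at least 0.5 were 3 of 5, 2 of 5 and 3 of 4 of them, against 1.89%, 2.17% and 3.18% of all measured genes. The epithelial medians were 0.11, 0.06 and 0.01 in Cy5 alone and -0.33, -0.32 and -0.53 in the reference. Their summed Cy3 signal was 4434, 3659, 3193 and 2671 in untreated cells and at 1, 4 and 6 h, above the Cy5 sum on each array. That of the macrophage markers was 36435, 42196, 41262 and 49445, below the Cy5 sum on each. Why the signal of a common reference differed between arrays was not tested. The 2 measured fibroblast and endothelial markers had medians of 0.04, 0.56 and 0.45, or 0.27, 0.95 and 0.68 in Cy5 alone. The macrophage markers had medians of 0.03, -0.07 and -0.17, or 0.07, -0.03 and 0.22 in Cy5 alone. These shifts were as large as those of the receptors below for the epithelial and the fibroblast and endothelial markers, and their part in the receptor values was not tested. In bulk RNA, fewer cells of a type and less RNA per cell cannot be told apart.

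At 6 h all 7 measured Toll-like receptors (Tlr1, Tlr2, Tlr4, Tlr6, Tlr7, Tlr9 and Tlr13) stood below untreated cells, with a median difference of -0.47 and a range from -0.73 to -0.17. The other 23 measured members had a median of -0.02, with 12 below 0, and over all measured genes the median was -0.013 and 52.1% lay below 0. At 1 h the median of the same 7 receptors was 0.06 and at 4 h 0.04, with 3 of 7 below 0 at each time. Of all measured members 7 of 29 lay below 0 at 1 h (29.4% of genes), 12 of 30 at 4 h (49.1%) and 19 of 30 at 6 h. In simulated data most 2-fold changes read below 1 in size after this processing, so a 2-fold change can be missed at that size. No receptor or adaptor differed by 1 or more from untreated cells at any time. Those that differed by at least 0.5 were Nod2 (0.64) and the adaptor gene Ticam1 (0.55) at 1 h, and at 6 h Clec4e (0.77), Tlr7 (-0.73), Tlr2 (-0.62) and Tlr6 (-0.59).

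**Figure D1:**
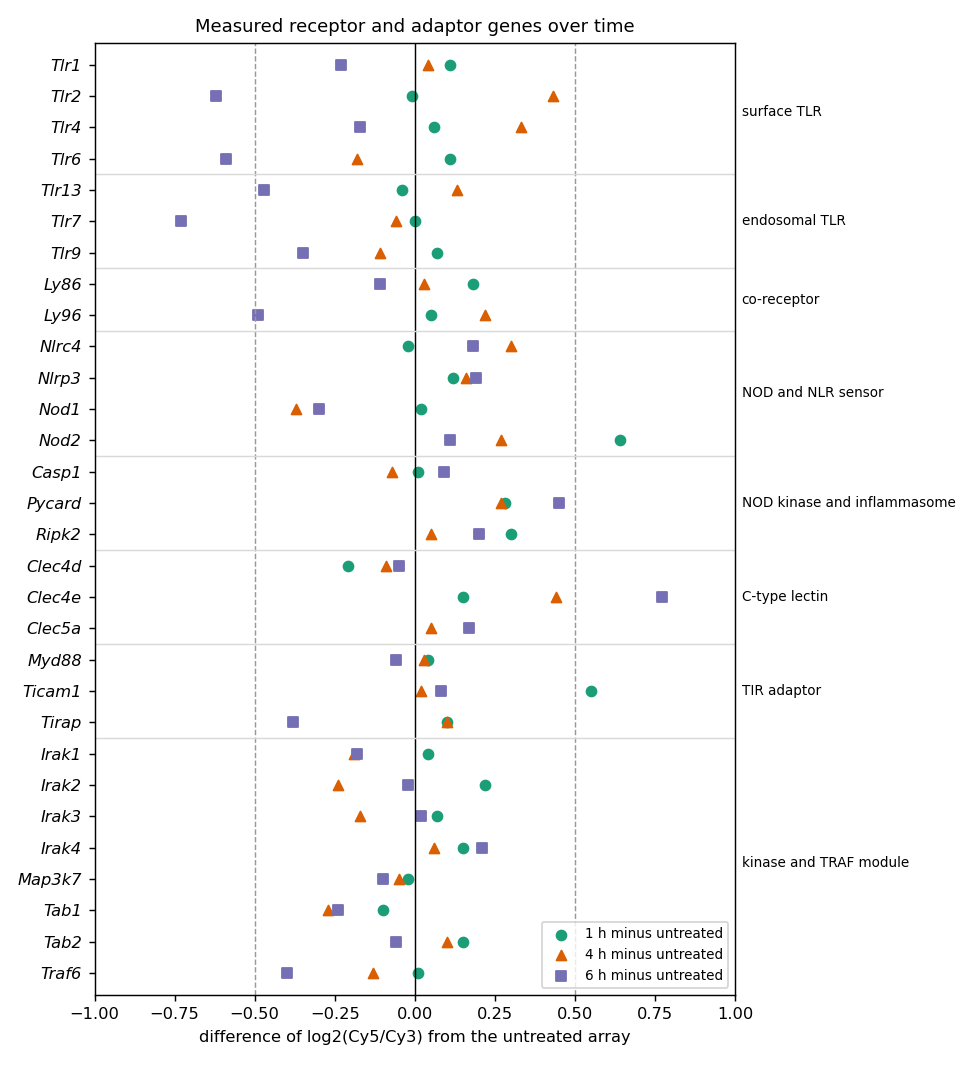
Difference of log2(Cy5/Cy3) from the untreated array (horizontal axis, log2 units) for each of the 30 measured members (rows, grouped by role), with circles for 1 h, triangles for 4 h and squares for 6 h. Each point is 1 array against 1 array, dashed lines mark 0.5 in size, and the 6 h squares of the 7 Toll-like receptors lie between -0.73 and -0.17.

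The promoters of these genes are shown because of their ratios. Tlr2 and Tlr6 stood low together at 6 h while Clec4e stood high, and Ticam1 passed 0.5 at 1 h alone among the 3 times. The contrast is weaker in Cy5 alone for Clec4e, at 0.27 at 6 h, and for Ticam1, at 0.87, 0.32 and 0.47. RefSeq entries (GRCm38.p6) were found for 30 of the 37 members and for 5 of the 6 that passed 0.5, Tlr7 being without an entry. Each sequence runs 5′ to 3′ along the gene, from 250 bases before its start to 50 after it. Capitals mark matches, on either strand, to AGGAAG (a core bound by PU.1 and related ETS factors) or to TATAAA, the usual core of the box of that name in front of many genes. Tlr2 lies at chr3:83841559-83841858 (minus strand), the entries of Tlr6 at chr5:64959117-64959416 (minus strand) and chr5:64959999-64960298 (minus strand), Clec4e at chr6:123289822-123290121 (minus strand) and Ticam1 at chr17:56276718-56277017 (minus strand).
Tlr2: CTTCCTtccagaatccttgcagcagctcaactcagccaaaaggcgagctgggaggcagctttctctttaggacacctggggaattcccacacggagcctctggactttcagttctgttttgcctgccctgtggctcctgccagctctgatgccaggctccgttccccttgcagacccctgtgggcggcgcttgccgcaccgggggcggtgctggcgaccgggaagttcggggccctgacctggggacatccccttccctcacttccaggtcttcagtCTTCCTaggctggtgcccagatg
Tlr6, entry 1: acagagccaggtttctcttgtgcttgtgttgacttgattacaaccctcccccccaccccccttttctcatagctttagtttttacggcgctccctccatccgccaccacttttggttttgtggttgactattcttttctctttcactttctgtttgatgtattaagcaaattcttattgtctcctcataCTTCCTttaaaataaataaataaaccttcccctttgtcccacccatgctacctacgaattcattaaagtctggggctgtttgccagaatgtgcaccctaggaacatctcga
Tlr6, entry 2: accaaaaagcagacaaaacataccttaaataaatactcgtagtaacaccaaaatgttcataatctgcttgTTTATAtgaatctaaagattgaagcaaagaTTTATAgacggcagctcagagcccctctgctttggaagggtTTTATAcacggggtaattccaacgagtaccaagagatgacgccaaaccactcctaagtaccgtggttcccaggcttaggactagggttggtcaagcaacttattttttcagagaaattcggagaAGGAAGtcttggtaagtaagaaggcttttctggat
Clec4e: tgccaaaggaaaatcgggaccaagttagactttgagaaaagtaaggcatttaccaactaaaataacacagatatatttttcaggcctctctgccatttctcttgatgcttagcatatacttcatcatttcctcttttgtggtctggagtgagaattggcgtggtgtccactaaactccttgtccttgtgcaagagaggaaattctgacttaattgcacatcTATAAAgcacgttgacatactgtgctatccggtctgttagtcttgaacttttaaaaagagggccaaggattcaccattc
Ticam1: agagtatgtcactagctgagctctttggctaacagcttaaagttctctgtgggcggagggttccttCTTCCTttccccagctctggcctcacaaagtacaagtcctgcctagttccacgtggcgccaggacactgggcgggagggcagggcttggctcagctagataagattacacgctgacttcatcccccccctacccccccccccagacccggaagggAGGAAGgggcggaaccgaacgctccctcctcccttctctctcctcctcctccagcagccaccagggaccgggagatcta
In these windows AGGAAG was found at positions -250 and 28 from the start of Tlr2, both on the opposite strand, at -61 and 16 in the entries of Tlr6, and at -184 and -29 in Ticam1. It was found in 18 of 40 promoter entries of members and in 35.4% of all 32851 promoters of this length, so a match is common. TATAAA stood at -29 in Clec4e, the usual distance of such a box, and on the opposite strand at -180, -150 and -109 in entry 2 of Tlr6; 13.6% of all promoters hold it. The 1 form of the NF-kB site that was searched for and TGANTCA (AP-1) were found in none of the windows shown, and in 1.63% and 7.81% of all promoters. Other forms of the NF-kB site were not searched for. The Tlr2 window does hold gggaattccc, which has another form of that site (GGGRNNYYCC, where R is A or G and Y is C or T). It is not in capitals, since that form was not among the motifs searched for. How often it occurs over all promoters was not counted, and its use in these cells was not tested. The other windows shown may also hold other forms. The Nod2 promoter held none of the 4 motifs. These motifs do not overlap each other in the windows shown.

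Among the surface receptors, Tlr2 was measured most closely, since its probe was printed on 10 spots of every array. Its processed Cy5 signal was 6561, 6718, 7678 and 3662 in untreated cells and at 1, 4 and 6 h, against 7247, 7574, 6251 and 6423 in the Cy3 reference. The mean log2 ratio was -0.19 ± 0.16 (SD of 10 spots) in untreated cells, -0.20 ± 0.08 (9 spots) at 1 h, 0.23 ± 0.05 (8 spots) at 4 h and -0.81 ± 0.04 (10 spots) at 6 h. At 4 h all 8 usable spots lay above every untreated spot, and at 6 h all 10 lay below every untreated spot. Spots of 1 array share their RNA and hybridization, so they measure spot error and not the error between arrays or the spread between cultures. Against untreated cells the differences were -0.01 ± 0.06, 0.43 ± 0.05 and -0.62 ± 0.05 (SE over spots) at 1, 4 and 6 h, higher at 4 h and lower at 6 h by more than the spot error. In Cy5 alone they were -0.03, 0.23 and -0.84. At 6 h against 4 h Tlr2 differed by -1.05 in the ratio and by -1.08 in Cy5 alone, and the reference by -0.03. In that comparison Tlr2 was the 1 member of 30 lower by at least 1, against 0.143% of 10503 genes.

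**Figure D2:**
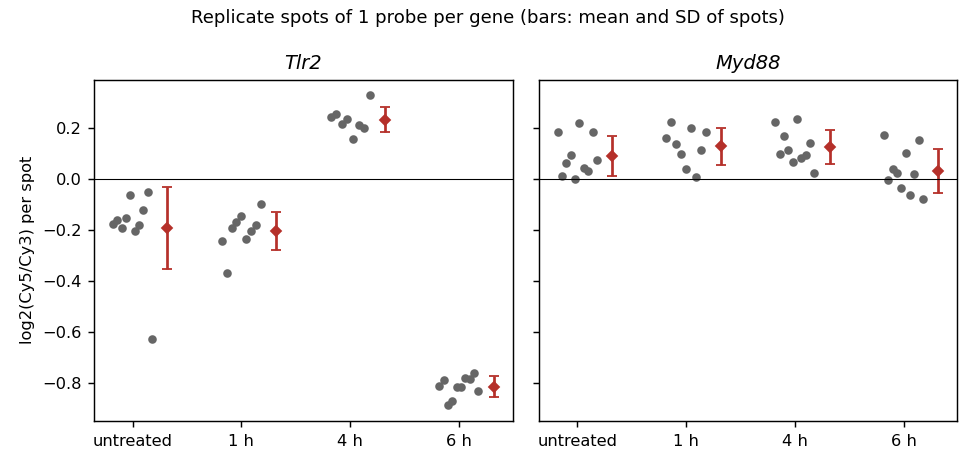
Log2(Cy5/Cy3) of every usable replicate spot (vertical axis) of the Tlr2 probe (left) and the Myd88 probe (right) on the 4 arrays; grey points are spots, diamonds with bars are the mean and SD of the spots. The Tlr2 spots averaged 0.23 at 4 h and -0.81 at 6 h against -0.19 in untreated cells, whereas the Myd88 means stayed between 0.03 and 0.13.

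The partners of Tlr2 differed from each other in size. Tlr6, which with Tlr2 binds diacylated lipoproteins, had Cy5 signals of 368, 392, 275 and 92.8 and Cy3 signals of 388, 401, 350 and 184 in untreated cells and at 1, 4 and 6 h. Its signal at 6 h was thus the lowest of the 4 in both channels, and the reference, which holds the same RNA on every array, moved by -0.64 as well. The difference of the ratio was 0.11, -0.18 and -0.59 at 1, 4 and 6 h, and that of Cy5 alone at 6 h was -1.22. Tlr1, which with Tlr2 binds triacylated lipoproteins, had Cy5 signals of 277, 321, 290 and 213 and a steady reference of 269 to 293. Its differences of 0.11, 0.04 and -0.23 followed the same order at a smaller size, and none passed 0.5. Tlr4, the receptor for lipopolysaccharide of Gram-negative bacteria, had Cy5 signals of 815, 910, 1084 and 857, so it was highest at 4 h. Its ratio stood at 0.33 at 4 h and -0.17 at 6 h, but in Cy5 alone the 6 h value was 0.16, so its place below untreated cells rests on the reference, which moved by 0.33. Tlr5, the flagellin receptor, was not well above background on any array.

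The co-receptors help these receptors bind their ligands. Ly96 (MD-2), which binds lipopolysaccharide with Tlr4, had Cy5 signals of 1473, 1368, 2004 and 1253 and Cy3 signals of 1537, 1535, 1714 and 1950. Its ratio stood at 0.05, 0.22 and -0.49 at 1, 4 and 6 h, and the 6 h value lay mostly in the reference, since Cy5 alone moved by -0.21. At 6 h against 4 h Ly96 differed by -0.71 in the ratio and -0.56 in Cy5. Ly86 (MD-1), the partner of Cd180, stood at 0.18, 0.03 and -0.11. Cd14, which hands lipopolysaccharide and lipoproteins to the receptors, was very bright, with processed Cy5 signals of 52295, 61731, 66798 and 47989. Its only spot was marked as an outlier on all 4 arrays and was left out; with outlier spots kept its differences were 0.03, -0.02 and -0.52. Cd180, a Toll-like receptor homologue, was dim, with Cy5 signals of 70.2, 44.6, 36.7 and 17.5, and was not well above background in the reference on the 3 treated arrays. At 6 h it was at least 1.25-fold lower in Cy5 than in untreated cells, a log2 bound of 0.32 that is open to dye bias. The reference, the same RNA on each array, was lower by a similar amount (-0.30), and with dim probes kept the ratio differed by -0.02, so a change of Cd180 cannot be read from these values.

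The endosomal receptors sense nucleic acids. Tlr7, a receptor for single-stranded RNA, had 2 probes, and both stood lowest at 6 h. The brighter probe had Cy5 signals of 2340, 2598, 2389 and 1404 with a reference of 2373, 2553, 2492 and 2583, and the dimmer probe had Cy5 signals of 385, 300, 280 and 118 with a reference of 351, 326, 292 and 207. Their differences at 6 h were -0.86 and -0.61, and at 1 and 4 h all 4 values lay between -0.09 and 0.04, so the probes moved together in the ratio. In Cy5 alone they differed in sign at 1 h (0.22 and -0.37) and at 4 h (0.22 and -0.33). At 6 h they stood at -0.60 and -1.10 in Cy5, with the reference at 0.26 and -0.49. The mean ratio difference of -0.73 at 6 h had 1.73% of all measured genes at or below it. Tlr13, which senses bacterial ribosomal RNA in mice, had Cy5 signals of 4547, 4686, 4953 and 3352 with a reference of 4112 to 4479. It stood at -0.04, 0.13 and -0.47 at 1, 4 and 6 h, the last being -0.53 in Cy5 alone. Tlr9, the receptor for unmethylated CpG DNA, had processed Cy5 signals of 344, 289, 236 and 179, lower at each later time. Its reference was also dimmer on the treated arrays, at 249.5, 197.4, 198.2 and 186.0. The ratio stood at 0.07, -0.11 and -0.35, and normalized Cy5 alone at -0.02, -0.14 and -0.40. On no array were Tlr3 and Tlr8, both RNA receptors, well above background.

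**Figure D3:**
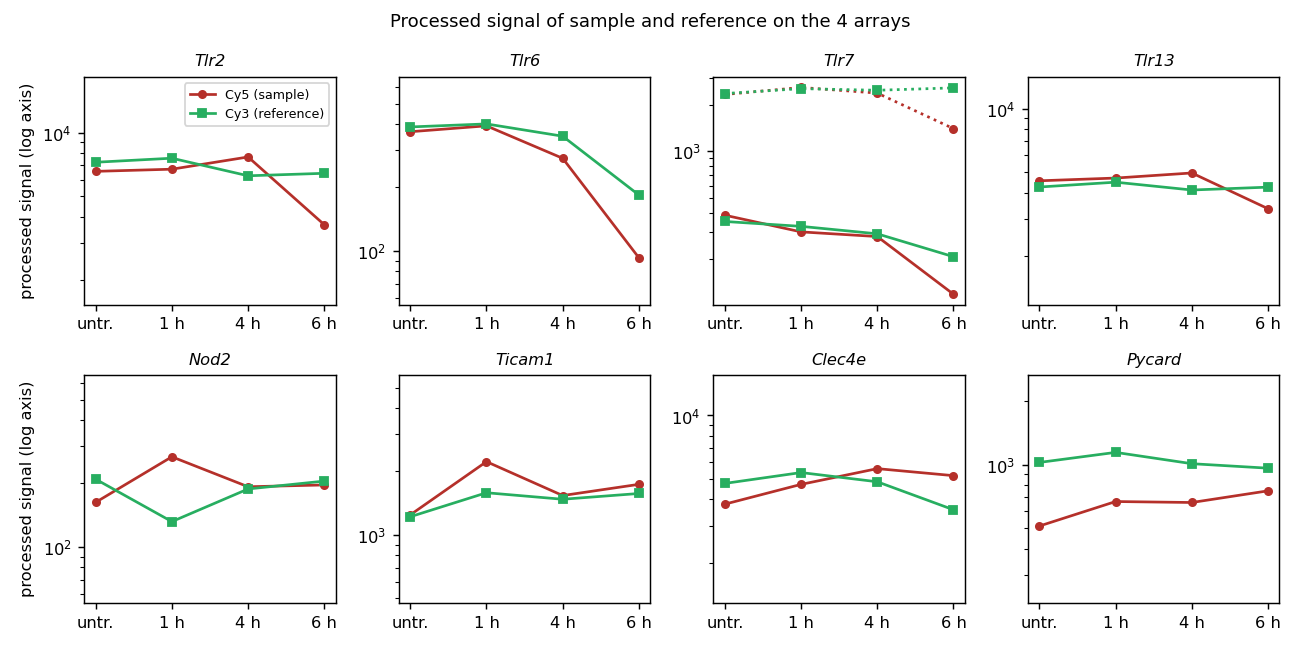
Processed signal (vertical axis, logarithmic, arbitrary intensity units) of 8 members in Cy5 (circles, sample) and Cy3 (squares, pooled reference) in untreated cells and at 1, 4 and 6 h; the dotted lines are the brighter Tlr7 probe. The Cy5 lines of Tlr2, Tlr6, Tlr7 and Tlr13 lie below their Cy3 lines at 6 h, and the Cy5 line of Clec4e lies above its Cy3 line at 4 h and 6 h.

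Counted by size, 3 of 30 members were lower by at least 0.5 at 6 h, where 5.11% of 10309 measured genes were, and 1 was higher, where 3.18% were. Lower in both the ratio and Cy5 alone by 0.5 were the same 3, Tlr2, Tlr6 and Tlr7, against 2.12% of genes, and 0 were higher in both, against 2.43%. By the rule of 1, 0 members were higher (0.456% of genes) and 0 lower (0.466%). Between 4 h and 6 h, 5 of 30 members were lower by at least 0.5 at 6 h: Tlr2 (-1.05), Ly96 (-0.71), Tlr7 (-0.67), Tlr13 (-0.60) and Tlr4 (-0.50). In Cy5 alone these were -1.08, -0.56, -0.79, -0.56 and -0.27, and the reference of Tlr4 moved by 0.23. In that comparison 2.29% of genes were lower and 1.09% higher, and 0 members were higher. By the rule of 1, 0 members were higher, against 0.190% of genes. The 3 comparisons with untreated cells share the untreated array, and the 4 h and 6 h values share an array with this one, so they are not independent. Against 1 h, Tlr2, Tlr6, Tlr7, Ly96 and Nod2 were lower at 6 h by 0.5 or more (5 of 29 members, against 6.43% of genes) and Clec4e was higher (1 member, against 1.32%). In Cy5 alone Ly96, Nod2 and Clec4e differed by -0.16, -0.11 and 0.21 in that comparison, with the reference at 0.38, 0.42 and -0.41, so these 3 values lay mostly in the reference. By the rule of 1, 0 members were lower (0.696% of genes) or higher (0.172%).

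**Figure D4:**
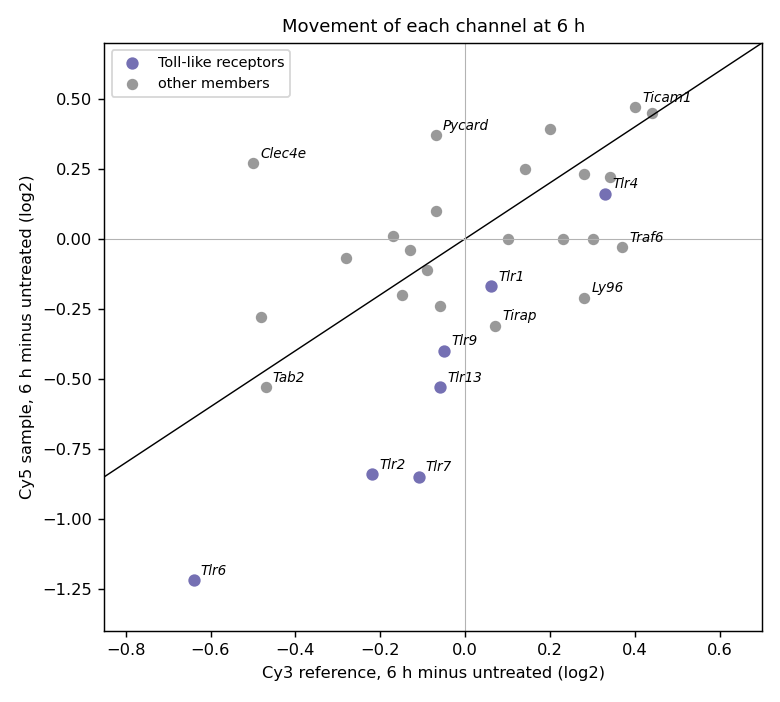
Movement of the Cy3 reference (horizontal axis) and of the Cy5 sample (vertical axis) between the untreated and 6 h arrays, each in log2 units after normalization between arrays, for the 30 measured members; the diagonal marks equal movement. Tlr2, Tlr6 and Tlr7 lie at -0.84, -1.22 and -0.85 in Cy5, and Clec4e lies at 0.27 in Cy5 with a reference at -0.50.

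Among the cytosolic sensors, Nod2 passed 0.5, at 1 h. It had Cy5 signals of 163, 268, 193 and 197 and Cy3 signals of 210, 132, 188 and 205 in untreated cells and at 1, 4 and 6 h. Its Cy5 signal was highest and its reference lowest at 1 h, so the difference of 0.64 held 0.36 from Cy5 and 0.28 from a lower reference. At 4 h and 6 h Nod2 stood at 0.27 and 0.11. Nod1, which senses another peptidoglycan fragment, stood at 0.02, -0.37 and -0.30, and in Cy5 alone at 0.16, -0.09 and 0.00. Ripk2, the kinase of both, had Cy5 signals of 166, 137, 56.6 and 95.9 and Cy3 signals of 162, 43.6, 45.2 and 68.1. Its ratio stood at 0.30, 0.05 and 0.20 while both channels were dimmer on the treated arrays, by 0.19, 0.59 and 0.28 in Cy5 and 0.49, 0.64 and 0.48 in Cy3. The 1 h value also depended on the processing, from -0.19 in Cy5 alone to 1.62 with the scanner's processed signals. A change of Ripk2 thus cannot be read from these values. Nlrp3, the sensor of the best-known inflammasome, stood at 0.12, 0.16 and 0.19 from its brighter probe, and its Cy5 signals were 298, 367, 357 and 385. Nlrc4, which assembles an inflammasome after Naip proteins bind bacterial proteins, stood at -0.02, 0.30 and 0.18.

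Pycard (ASC), the adaptor that links these sensors to caspase-1, had Cy5 signals of 512, 668, 661 and 751 with a reference of 1025, 1144, 1011 and 962. It was higher than in untreated cells at all 3 times, by 0.28, 0.27 and 0.45, a shift of about the same size in Cy5 alone at 4 h and 6 h (0.23 and 0.37) that did not pass 0.5. Its ratio lay below 0 on all 4 arrays, as for 6 other member probes. Casp1 stood at 0.01, -0.07 and 0.09, within the spot error.

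Among the C-type lectins, Clec4e (Mincle), a receptor for glycolipids of mycobacteria and other microbes, was the member with the highest value. Its Cy5 signals were 3796, 4711, 5596 and 5183 and its Cy3 signals 4761, 5361, 4848 and 3570 in untreated cells and at 1, 4 and 6 h. The ratio stood at 0.15, 0.44 and 0.77, higher at each later time, and 0.922% of measured genes were at or above it at 6 h. In Cy5 alone the values were 0.06, 0.26 and 0.27, so at 6 h most of the difference lay in a reference that moved by -0.50. Clec4d, which pairs with Clec4e, was brighter, with Cy5 signals of 14493 to 17285, and stood at -0.21, -0.09 and -0.05. Clec5a was dim, with Cy5 signals of 37.9 to 42.9, and stood at 0.05 and 0.17 at 4 and 6 h; at 1 h its reference was not well above background. No probe on the array matched Clec7a (Dectin-1), the receptor for beta-glucan.

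The adaptors with a Toll/interleukin-1 receptor domain join the receptors to their kinases. Myd88, with 10 spots per array, had mean Cy5 signals of 7012, 8471, 8516 and 8835 and mean Cy3 signals of 6553, 7791, 7746 and 8617, so both channels were brighter on the treated arrays. Its differences were 0.04 ± 0.03, 0.03 ± 0.03 and -0.06 ± 0.04 (SE over spots) at 1, 4 and 6 h, no larger than about the spot error. Ticam1 (TRIF), the adaptor of Tlr3 and Tlr4 towards interferon genes, had Cy5 signals of 1245, 2227, 1538 and 1738 and Cy3 signals of 1220, 1586, 1477 and 1573. Its Cy5 signal was highest at 1 h, and the difference was 0.55 at 1 h, 0.02 at 4 h and 0.08 at 6 h, or 0.87, 0.32 and 0.47 in Cy5 alone. Tirap, which brings Myd88 to Tlr2 and Tlr4, had Cy5 signals of 1819, 2055, 2150 and 1545 and stood at 0.10, 0.10 and -0.38. Ticam2, the bridge between Tlr4 and Ticam1, was not well above background on any array.

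At 1 h 2 of 29 members were thus higher by at least 0.5, where 1.89% of 10368 genes were, and 0 lower, where 0.81% were. Ticam1 was the 1 member higher by 0.5 in both the ratio and Cy5 alone, against 1.03% of genes, and 0 were lower in both, against 0.0868%. At 4 h 0 of 30 members were higher or lower by at least 0.5, where 2.17% and 2.22% of 10337 genes were, and likewise 0 in both the ratio and Cy5 alone, where 1.55% were higher and 0.726% lower. By the rule of 1, 0 members passed at 1 h (0.328% of genes higher and 0.0482% lower) or at 4 h (0.242% higher and 0.213% lower). The Cy3 reference itself was apart by 0.5 or more for 0 members at 1 h (6.87% of genes), 1 at 4 h (Ripk2, 8.68%) and 1 at 6 h (Tlr6, 12.9%). The member medians were 0.069, 0.040 and -0.079 at 1, 4 and 6 h, against 0.058, 0.004 and -0.013 over all measured genes.

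The 8 kinases, kinase partners and Traf6 had medians of 0.05, -0.15 and -0.08 at 1, 4 and 6 h, within a range of -0.40 to 0.22, and 0 passed 0.5. Of all measured genes, 0.81% to 5.11% passed 0.5 in a given direction at a given time. Traf6, the ubiquitin ligase below the Irak kinases, was lowest at 6 h, at -0.40, with Cy5 signals of 163, 241, 218 and 158 and a reference that was brighter on the 3 treated arrays (131 in untreated cells, 205 to 229 after treatment). In Cy5 alone Traf6 stood at -0.03 at 6 h. Irak3 (IRAK-M), an inhibitor of the pathway, stood at 0.07, -0.17 and 0.02 and Irak4, the kinase nearest to Myd88, at 0.15, 0.06 and 0.21. The 3 probes of Irak1 stood at -0.19, -0.02 and -0.32 at 6 h. The 2 probes of Irak2 disagreed at 1 h, at 0.45 and -0.02, and at the probe with 0.45 the reference signal was 913 at 1 h against 1565 in untreated cells, so no value is read from their mean of 0.22. Map3k7 stood between -0.10 and -0.02 over the times, with 3 probes that differed in sign at 6 h (-0.13, -0.23 and 0.07). Its partner Tab1 stood at -0.10, -0.27 and -0.24, while Tab2 stood at 0.15, 0.10 and -0.06 with a 6 h movement of -0.53 in Cy5 and -0.47 in the reference.

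Other genes of these pathways were described from lists by counts past 0.5. The cytosolic nucleic acid sensors had the lowest median at 6 h, -0.44, with 4 of 11 measured genes lower and 0 higher, against 5.11% and 3.18% of all genes, and 3 lower at 4 h, against 2.22%. Of them Ifi204, a DNA sensor, stood at 0.07, -0.61 and -0.93 and Ddx58 (RIG-I), an RNA sensor, at 0.08, -0.60 and -0.59, with Cy5 alone at -1.04 and -0.48 at 6 h. Trim25, the ubiquitin ligase of RIG-I, stood at -1.57 at 6 h, with -0.94 in Cy5 and a reference moved by 0.63. In the list of NF-kB and MAP kinase genes 2 of 21 were higher at 6 h and 0 lower, against 3.18% and 5.11% of all genes, with a median of 0.07 at 4 h and at 6 h. Jun, a subunit of AP-1, had ratio differences of 0.50, -0.09 and 0.67. Its Cy5 signal alone differed by 0.13, -0.33 and 0.34, so it did not pass 0.5 there. Nfkbia, the inhibitor of NF-kB, stood at -0.14, 0.53 and 0.07 (0.05, 0.50 and -0.26 in Cy5 alone), and Mapk3 (ERK1) at 0.15, 0.21 and 0.52 (0.07, 0.50 and 0.78 in Cy5 alone).

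The trafficking and accessory list held Unc93b1, the escort of endosomal Toll-like receptors, at 0.05, -0.13 and -0.36. It also held Cnpy3, a chaperone of Toll-like receptors, at 0.29, 0.07 and -0.34. In that list 0 of 12 genes passed 0.5 at any time, where 0.81% to 5.11% of all genes did in a given direction. The median of the list was -0.14 at 6 h. The TRIF and interferon list had a median of -0.23 at 6 h with 0 of 10 past 0.5, against 3.18% of all genes higher and 5.11% lower. Traf3 stood at -0.44 at 6 h, but at -1.62 in Cy5 and -1.17 in the reference. The ubiquitin enzymes of the Myd88 pathway had medians of 0.13, 0.03 and 0.07 with 0 genes past 0.5, against 0.81% to 5.11% of all genes. Ube2n (Ubc13), which makes the ubiquitin chains with Traf6, stood at 0.19, 0.24 and 0.36. Among 15 measured negative regulators 2 were higher and 1 lower at 6 h, against 3.18% and 5.11% of all genes. Dok1, an adaptor that dampens kinase signals, stood at 0.22, 0.49 and 0.52. Tnfaip3 (A20), an inhibitor of NF-kB signalling, had ratio differences of 0.39, 0.65 and 0.89. Its Cy5 signal alone differed by -1.29, 0.20 and 1.51, and its reference by -1.68, -0.44 and 0.63. Sigirr, an inhibitory receptor, stood at -0.60, -0.61 and -0.82, but was higher in Cy5 alone, at 1.15, 1.25 and 1.12, with a reference at 1.75, 1.85 and 1.95. No direction is read for Sigirr at any time or for Tnfaip3 at 1 h.

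Of the other inflammasome genes 2 of 15 were higher at 6 h and 0 lower, against 3.18% and 5.11% of all genes. Txnip, an inhibitor of thioredoxin that can bind Nlrp3, stood at 0.09, 0.80 and 1.07, with Cy5 alone at 0.26, 0.98 and 1.33, and Nlrc3 at 0.24, 0.57 and 0.51. Among the other lectin, peptidoglycan and formyl peptide receptors 1 of 11 was higher at 6 h, against 3.18% of all genes. This was Pglyrp1, a secreted peptidoglycan recognition protein, at 0.44, 0.50 and 0.56, with Cy5 alone at 0.55, 0.59 and 0.69. Syk, the kinase below the C-type lectins, stood at 0.22, 0.58 and 0.45 with a reference moved by -0.38, -0.49 and -0.48 and Cy5 alone at -0.16, 0.09 and -0.03.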

How the data were processed

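RNA was measured on 4 two-colour Agilent mouse arrays, 1 per group. According to the submitters' processing notes, spots were quantified in Agilent Feature Extraction 10.5.1.1. The deposited files hold median intensity values of each spot and its local background, without correction, and processed intensities with background subtraction and dye normalization, per the file headers. The authors' deposited log10 values are the scanner's ratios of sample over reference. Intensities were corrected with normexp (offset 50) and loess within arrays in limma 3.58.1 (R 4.3.3); control and outlier spots (1.55% to 1.84%) were left out and no spot was saturated. Single channels were compared after Aquantile normalization. Spots of a probe, then the measured probes of a gene, were averaged; measured means well above background in both channels of both arrays. Probes were named through RefSeq (GRCm38.p6): 27655 of 39429 matched. The array's own annotation is on mm9, so the promoter positions are RefSeq's on GRCm38.p6 and no probe positions are given. All 37 members are named; values on every array are given for members past 0.5 and for Tlr1, Tlr2, Tlr6, Cd14, Nod2, Ripk2, Myd88 and Tirap, and up to 3 genes per other list with the largest differences. Members, roles and lists were chosen with earlier results of these data known. A further list of cell type markers is not reported here. No test was possible with 1 array per group. Of the alternatives, 11 were planned and 1 was added after seeing the data. The steps were tested on simulated data. There, genes set 2-fold higher read at a median of 0.86 and genes set 2-fold lower at -0.74. At most 18.0% of either set passed 1 in size, so counts of 0 by the rule of 1 do not exclude 2-fold changes. Other steps ran in Python 3.11.15 with pandas 2.3.3, and plots in matplotlib 3.10.9.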

Additional observations from a re-analysis of the deposited data

Results flagged for a closer look

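Tlr2 differed from untreated cells in opposite directions at 2 times, by 0.43 at 4 h and by -0.62 at 6 h on the log2 ratio scale, with 1 array per time; the difference between the times was not tested.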

How the results depend on the processing

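Depth cannot be judged from arrays; dim members such as Clec5a, Cd180 and Ripk2 are limited by signal over background. Over 11 planned settings, the 6 h values of Tlr7 stayed between -0.93 and -0.56, of Tlr2 between -0.84 and -0.38, of Tlr6 between -1.22 and -0.41, and the 1 h value of Nod2 between 0.36 and 1.39. No member past 0.5 changed sign. The 7 Toll-like receptors had a median at 6 h between -0.63 and -0.38 in the planned settings, and all 7 lay below 0 in each but Cy5 alone, where Tlr4 stood at 0.16 and 6 of 7 did. Scale normalization between arrays took Tlr2 to -0.38 and Tlr6 to -0.41, Cy5 alone took Nod2 to 0.36 and Clec4e to 0.27, and processed signals took Ticam1 to 0.46.

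For members higher by at least 1 at 1 h the count was 1 with plain background subtraction, 9 with median centring, and 2 with processed signals and with the deposited ratios, against 0 as reported. Median centring moved the median of all genes to 0.86 at 1 h and -0.15 at 6 h, so its counts largely follow that shift. With it 27 members were higher by at least 0.5 at 1 h (80.7% of all genes), with a member median of 0.85. At 6 h 7 members were lower (10.6% of all genes), with a member median of -0.24. Cy5 alone gave 1 member higher by 0.5 at 1 h, against 3.73% of all genes. At 4 h, against 0 as reported, processed signals and the deposited ratios each gave 2 higher and 1 lower by 0.5. Of all genes 6.90% and 6.89% were higher there, and 6.21% and 6.22% lower. Plain subtraction and Cy5 alone each gave 1 lower at 4 h, against 3.88% and 5.78% of all genes. At 6 h, against 3 lower and 1 higher by 0.5, offset 16 gave 5 lower; plain subtraction gave 2 higher; processed signals and the deposited ratios each gave 7 lower and 2 higher; Cy5 alone gave 5 lower, 0 higher and 1 lower by at least 1; and scale normalization gave 1 lower and 2 higher. The causes of these moves other than median centring were not tested. Leaving out genes whose reference moved by at least 0.5, a choice made after seeing the data, kept each member count within 1.5 times. At 6 h it gave 2 lower, against 4.29% of the genes kept. Over all genes, the share of calls past 0.5 that were higher was 70.0% at 1 h and 38.4% at 6 h as reported. At 1 h it was 55.4% with processed signals, 55.2% with the deposited ratios, 55.3% in Cy5 alone and 86.9% without genes whose reference moved; median centring gave 8368 higher and 1 lower. At 6 h it was 15.2% with median centring, 48.6% with plain subtraction and 50.7% in Cy5 alone, and at 4 h 49.4% as reported and 59.4% without genes whose reference moved. No paired analysis was possible because each group had 1 array. Position on the slide was not varied within a time.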
